A study of Mus musculus with 2 samples.

Results

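Among the probes of an Agilent mouse lncRNA and mRNA array, 942 of 97836 non-control probes (0.963%) are named by an Ensembl transcript identifier. Their signals were compared between a control mammary gland and a mammary gland of a miR-34a knockout mouse. The 942 were taken by name, as every non-control spot whose probe name begins with ENSMUST, the prefix of Ensembl mouse transcripts. The control array held RNA of a mammary gland from a female mouse with floxed alleles (miR-34a fl/fl). The knockout array held RNA of a mammary gland from a female miR-34a -/- mouse, bred by crossing the floxed mice to mice with a mammary-gland-specific Cre recombinase. Both groups thus derive from the floxed line, and deletion is limited to the cells in which that Cre acts. The promoter of the Cre, whether control mice carried it, the age of the animals and any pooling are not given in the sources used here. With 1 array per genotype there is no replicate, and the differences below are untested descriptions of these 2 RNA samples. In whole glands, fewer cells of a type and less RNA per cell cannot be told apart.

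Long non-coding RNAs (lncRNAs) are transcripts longer than most small RNAs that carry no recognised protein-coding frame. Many are expressed at low level and in few cell types, and some act in cis on neighbouring genes, in nuclear scaffolds, or in the cytoplasm where they can be bound by microRNAs. miR-34a is a microRNA induced by p53 that represses transcripts holding a match to its seed, the stretch of bases that sets its targets. The series title places it in a competing-RNA scheme, in which transcripts with shared sites compete for the same microRNA. An Ensembl transcript identifier is a stable number given to a transcript model, and it holds no information on sequence, position or function.

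The deleted microRNA is shown because it defines the comparison. Its mature 5' strand lies on chromosome 4 from 150068473 to 150068494 on the plus strand (RefSeq, build GRCm38.p6), and the capitals mark the seed, bases 2 to 8.
mmu-miR-34a-5p: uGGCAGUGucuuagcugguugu
No sequence of the 942 probes or their transcripts was used here, so seed matches in them were not analysed.

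None of the 942 identifiers was paired with a gene by the files or tables used here (0 matched), so gene names, genomic positions and biotypes of these transcripts are not given. The label lncRNA therefore rests on the array's naming and was not checked on the transcripts. Because the mRNA probes carry catalogue identifiers without gene names, the labelled tissue could not be checked on its marker genes. Brightness is of a probe and depends on its sequence, so the order of probe levels is not an order of transcript amounts.

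Each probe was printed in 2 spots on each array. A level below is the log2 processed signal, averaged over the usable spots of a probe, minus the 75th percentile of all non-control probes on its array. That percentile was a signal of 330 for the control and 242 for the knockout. Both arrays lay on the same slide and share their scan time, per the file headers. Of all non-control spots, 77.3% were well above background in the control and 75.4% in the knockout, by the scanner software's own mark. No member spot was saturated. Of the 1884 member spots, 9 carried an outlier mark on the control array and 7 carried one on the knockout array. These spots were left out, which left 940 members with a usable spot on both arrays.

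Most of the Ensembl-named probes gave signal in each gland, but a smaller share than over all probes. In the control gland 554 of 940 probes were well above background in every usable spot (58.9%, exact 95% interval 55.7% to 62.1%), and in the knockout gland 535 of 940 (56.9%, 53.7% to 60.1%). The interval describes the count of probes only. By the same rule, 75.5% of all 97373 probes were detected in the control gland and 73.2% in the knockout gland. Across both arrays 513 members (54.6%, against 71.3% of all probes) were well above background on both. Another 302 (32.1%) were so on neither, and 32 on a single array. For the remaining 93 (9.89%), the spots of a probe disagreed on at least 1 array, so they have no call. Shares of all probes on neither array or without a call are not given here. Negative-control spots gave the background level: 0 of 579 usable ones in the control and 0 of 581 in the knockout were well above background. Of the 302 probes detected in neither gland, 185 in the control gland and 162 in the knockout gland lay at or under the 95th percentile of those negative-control spots. The rest lay above that level without reaching the mark.

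**Figure D1:**
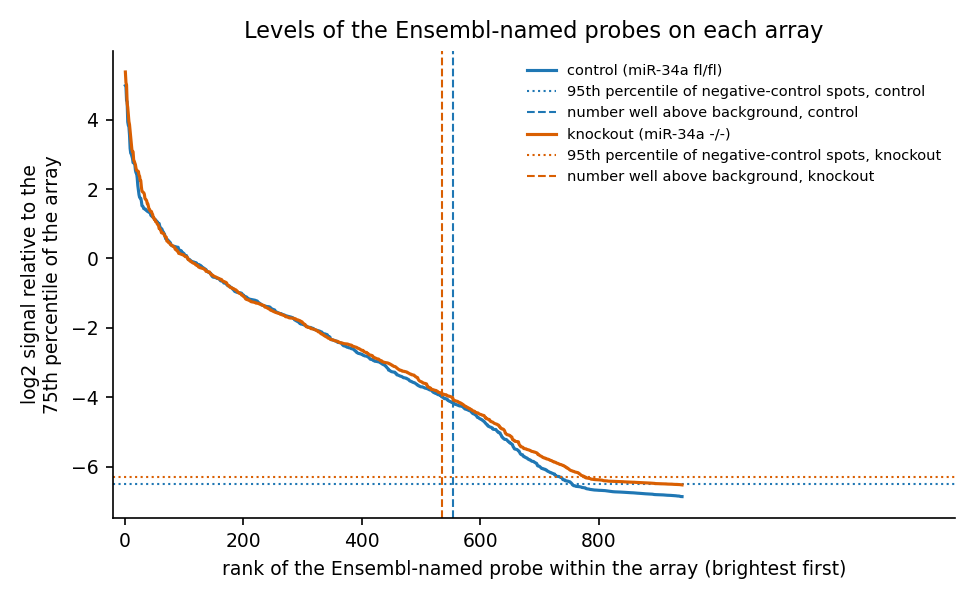
Level of the probe, as log2 signal minus the array's 75th percentile (y axis), against the rank of each of the 940 Ensembl-named probes within its array (x axis), control in blue and knockout in orange. Dashed lines mark 554 and 535 probes well above background, and dotted lines the 95th percentile of negative-control spots, at -6.52 and -6.31, where both curves flatten.

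The Ensembl-named probes were among the dimmer classes of the array. Their median level was -3.44 in the control gland and -3.25 in the knockout gland, against -1.93 and -1.94 over all probes. As plain signals, the member probes ran from 2.82 through a median of 30.3 to 10413 in the control gland, and from 2.61 through 25.3 to 10025 in the knockout gland. In the control gland 105 of 940 (11.2%) were above the array's 75th percentile, and in the knockout gland 106 (11.3%). Over all their probes, those for computationally predicted RefSeq transcripts came closest, with 60.7% detected in the control gland and a median level of -3.35. Curated RefSeq transcripts were detected more often, at 67.7% (exact 95% interval 64.5% to 70.8%), with a median level of -2.86. NONCODE transcripts stood at 72.1% and -2.45. The Agilent catalogue probes stood at 82.6% and -0.75. In the knockout gland the same 4 classes were detected at 58.3%, 65.4%, 70.1% and 80.3%. Over probes measured on both arrays the median control level was -1.55 for Ensembl-named probes, -1.52 for curated RefSeq, -1.83 for predicted RefSeq and -0.88 for all probes, so that among these the Ensembl-named probes lay next to the curated class. These differences between classes were not tested, and whether probe design differs with the class could not be checked here.

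**Figure D2:**
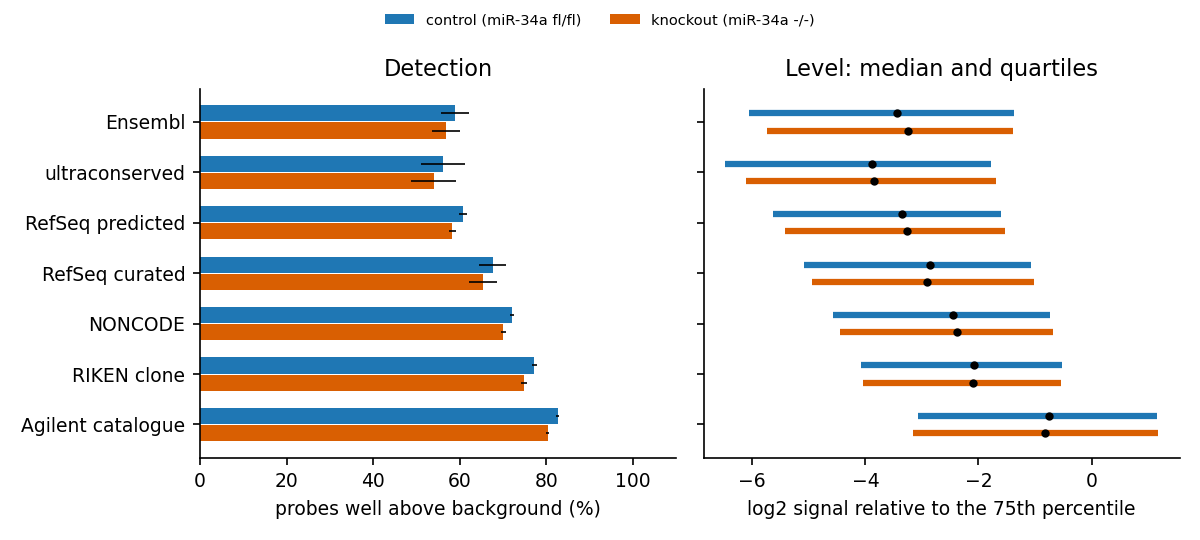
Left, percentage of probes well above background for 7 probe classes, with exact 95% intervals over probes; right, median (point) and quartiles (line) of the level. Control is blue and knockout orange. Ensembl-named probes were detected at 58.9% and 56.9%, against 82.6% and 80.3% for the Agilent catalogue.

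A small group of probes held much of the summed member signal. The 10 brightest probes of the control array carried 32.4% of the summed member signal in the control gland. Those of the knockout array, picked on that array, carried 35.4% in the knockout gland. Such shares are not given here for other classes or for all probes, so they are no trait particular to these probes. The 10 probes named below were instead ranked by mean level over both arrays, so they are not the same set on each array. ENSMUST00000189178 was the brightest, with spot signals of 9580 and 10888 in the control gland and 9094 and 11051 in the knockout gland. Its level was 4.95 in the control gland and 5.37 in the knockout gland, at percentiles 99.1 and 99.1 of all probes. ENSMUST00000185876 followed at 4.98 and 5.07, resting on a single usable spot in each gland (10413 and 8116). In plain signal the spots of ENSMUST00000189178 overlap between the glands. The level differences, after scaling, were 0.42 and 0.09. They depend on the scaling: with quantile scaling, a loess curve and spike-ins set equal, that of ENSMUST00000189178 was 0.07, 0.04 and 0.06, and that of ENSMUST00000185876 turned to -0.26, -0.28 and -0.27. The latter was also -0.28 with normexp and -0.26 without background correction.

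ENSMUST00000188920 had levels of 4.55 in the control gland and 5.002 in the knockout gland, ENSMUST00000161005 4.51 and 4.36, and ENSMUST00000132470 3.84 and 4.47. ENSMUST00000132370 stood at 3.93 and 4.17, ENSMUST00000162697 at 3.79 and 3.95, ENSMUST00000186838 at 3.55 and 3.51, and ENSMUST00000194822 at 3.17 and 3.67. For ENSMUST00000132470 an outlier mark left a single usable spot on the control array. With quantile scaling, a loess curve and spike-ins set equal, ENSMUST00000132370 and ENSMUST00000162697 also turned from higher to lower in the knockout, by at most 0.20 on the log2 scale. The ranking leaves out 2 bright members whose spots on 1 array all carried outlier marks. The first read 4755 and 4571 in the control gland, both marked, and 2958 and 3017 in the knockout gland. The second read 3871 and 3661 in the control gland and 3832 and 4098, both marked, in the knockout gland. The 10 are thus the brightest of the 940 ranked members only. Of these 10, 9 differed by less than 2-fold between the glands.

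ENSMUST00000188711, the tenth in brightness among the 940 ranked members, was the exception. Its spots read 2126 and 2291 in the control gland against 3454 and 3556 in the knockout gland, so that both knockout spots were above both control spots. The level was 2.74 in the control gland and 3.86 in the knockout gland, a log2 difference of 1.12 ± 0.06 (spot SD, 2 spots per array) or 2.17-fold higher in the knockout. The spot SD given with a difference pools the spot SDs of both arrays, as the root of their mean square. It covers printing and scanning only. The difference was 0.91 with quantile scaling, 0.86 with a loess curve, 0.76 with spike-ins set equal, 0.94 with normexp background correction and 0.96 without background correction, each under 2-fold.

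The main comparison asked which Ensembl-named probes differed between the miR-34a knockout gland and the control gland. Of the 513 probes measured on both arrays, 18 (3.51%) were at least 2-fold higher in the knockout and 19 (3.70%) at least 2-fold lower. Over all 69405 probes measured on both arrays, 4.45% were higher by that limit and 4.54% lower. Together 37 of the 513 members (7.21%) were at least 2-fold apart, against 8.99% of all probes. The members' shares were thus near and somewhat under the background. Their median log2 difference was 0.12, against 0.10 over all probes, and 306 of 513 lay above 0 (59.6%), against 58.6% of all probes. The middle 80% of members lay between -0.51 and 0.64, and of all probes between -0.62 and 0.72. Across the 513 members, the levels in both glands had a Pearson correlation of 0.94, where points share the probe and its sequence.

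The balance of higher and lower members moved with the scaling, and their number with the background correction. With the added E1A spike-ins made equal between arrays, every difference moved by -0.36, which left 8 members higher and 41 lower and a median of -0.24, and 1.82% of all probes higher and 9.63% lower. With normexp background correction the counts were 4 higher and 6 lower, against 1.89% and 2.23% of all probes, and without background correction 8 and 8, against 2.56% and 2.67%.

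**Figure D3:**
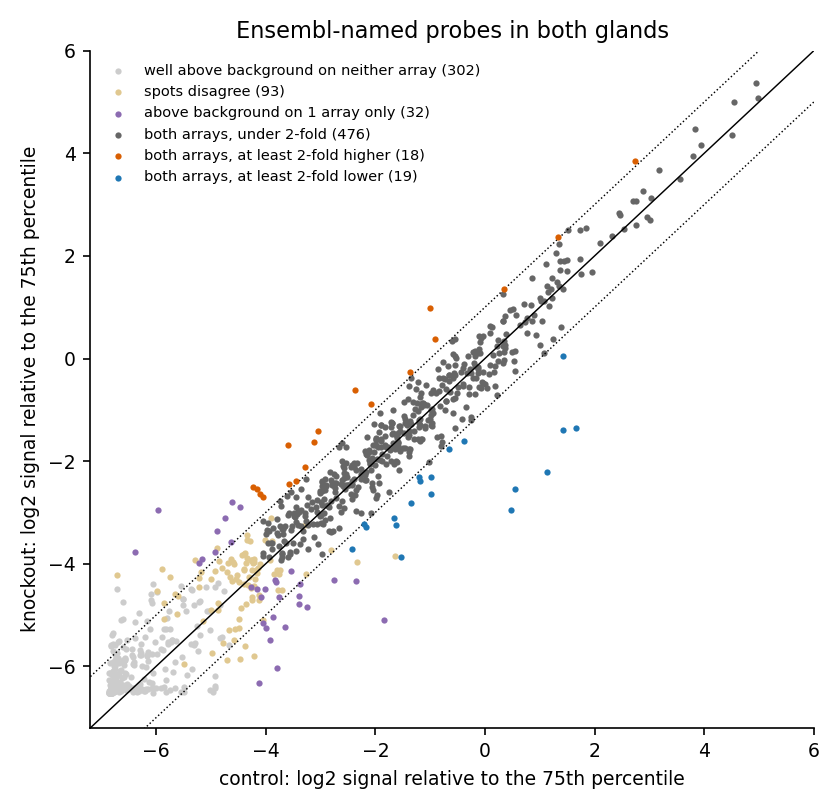
Level in the knockout gland (y axis) against level in the control gland (x axis) for the 940 Ensembl-named probes, both as log2 signal minus the array's 75th percentile; the solid line is equality and dotted lines mark 2-fold. Most points follow the diagonal, and the 19 lower probes (blue) reach farther from it than the 18 higher ones (orange).

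The decreases were larger than the increases. Of the 513 members 6 were at least 4-fold lower in the knockout (1.17%, against 1.02% of all probes) and 0 were at least 4-fold higher (against 0.386% of all probes). The lower members had a median log2 difference of -1.45 and reached -3.41, while the higher members had a median of 1.32 and reached 1.99. With outlier-marked spots kept, 1 member passed 4-fold on the higher side, at 2.25 on the log2 scale, and with no filter on dim probes 4 did, up to 3.02. The brighter of the levels in both glands had a median of -0.99 among the lower members, -1.52 among the higher members and -1.38 among the 476 members under 2-fold.

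The 5 largest decreases lay at log2 differences from -2.82 to -3.41. The sixth was at -2.35 and the next at -1.66, so the wider step came after the sixth. All 5 were between 0.47 and 1.65 in the control gland, above the 75th percentile of that array. ENSMUST00000098303 had the largest of these differences in the main setting: its spots read 482 and 431 in the control gland and 39.6 and 24.8 in the knockout gland. Its level went from 0.47 in the control gland to -2.95 in the knockout gland, a log2 difference of -3.41 ± 0.35 (spot SD, 2 spots per array) or 10.66-fold lower. Both knockout spots were well above background and both were far under the control spots. With normexp background correction its difference was -2.15, and without background correction -2.55. In both of these settings another of the 5 was the largest decrease, at -2.45 and -2.67, and with outlier-marked spots kept ENSMUST00000188155 was.

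ENSMUST00000188155 was next. Its knockout spots read 44.5 and 61.6, and its usable control spot read 718; a second control spot, at 857, carried an outlier mark and was left out. The level was 1.12 in the control gland and -2.21 in the knockout gland, a log2 difference of -3.33 or 10.1-fold lower. With the marked spot kept the difference was -3.46, and with normexp background correction -2.15. The other 3 of the 5 were 8.46-fold, 8.06-fold and 7.08-fold lower, with spot SDs of 0.09, 0.08 and 0.25. With normexp background correction their log2 differences were -2.08, -2.45 and -2.26, against -3.08, -3.01 and -2.82. Spike-ins set equal on both arrays moved the difference of ENSMUST00000098303 to -3.77 and of ENSMUST00000188155 to -3.69. Identifiers of the other decreases are not listed, as the files do not pair them with genes.

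The largest increase with outlier-marked spots left out was that of ENSMUST00000185992. Its spots read 192 and 141 in the control gland and 492 and 465 in the knockout gland, with no overlap between the glands. The level was -1.002 in the control gland and 0.985 in the knockout gland, a log2 difference of 1.99 ± 0.23 (spot SD, 2 spots per array) or 3.97-fold higher. It was 1.63 with spike-ins set equal and 1.63 with normexp background correction. The second and the third largest increases were 1.92 and 1.77 on the log2 scale, so that no gap set the largest increases apart from the rest. Members just past 2-fold lay at 1.02 and 1.04 among the higher and at -1.02 and -1.10 among the lower, and members just short of it at 0.996 and 0.970 and at -0.995 and -0.965.

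**Figure D4:**
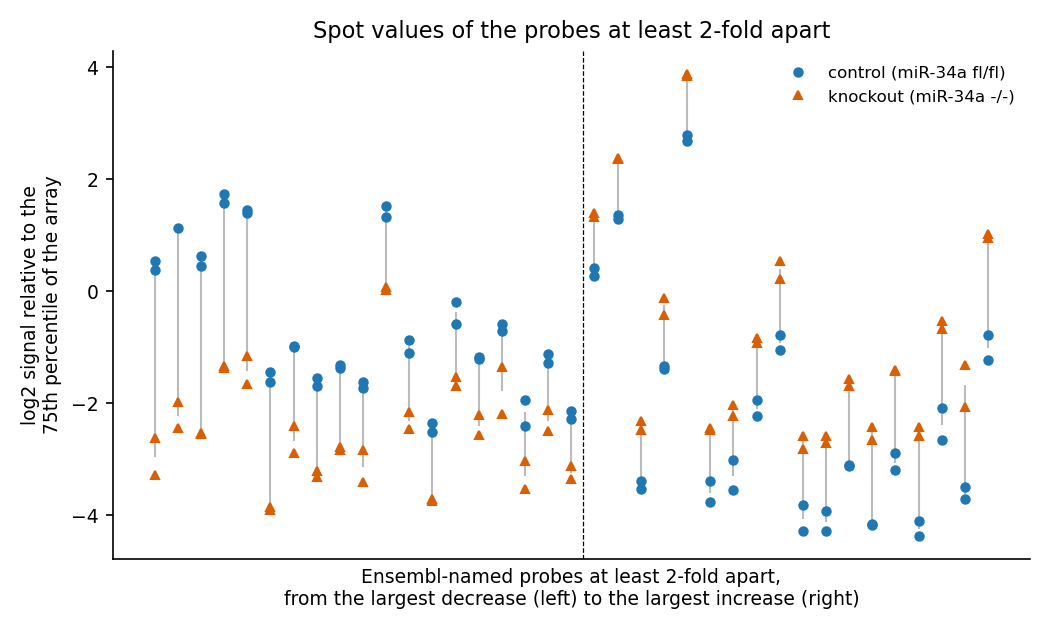
Spot values (log2 signal minus the array's 75th percentile, y axis) of the 37 Ensembl-named probes at least 2-fold apart, ordered from the largest decrease to the largest increase, with control spots as blue circles, knockout spots as orange triangles and grey lines between the probe levels. The 5 largest decreases lie between 0.47 and 1.65 in the control gland.

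Both spots of a probe mostly gave like differences. Across 504 measured members with 2 usable spots on each array, the difference computed from the first spots and that from the second spots had a Pearson correlation of 0.85, where both come from the same RNA and hybridisation, and 415 of 504 had the same sign in both. The median spot SD of a difference was 0.13. Of the 18 higher members, 13 were past 2-fold in every pairing of a knockout spot with a control spot, and of the 18 lower members with 2 usable spots on each array, 12 were. All 18 of each kept their direction in every pairing. For comparison, spots of a member within an array were at least 2-fold apart for 3 of the 504 members in the control and for 3 in the knockout.

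Another 32 members were seen in 1 gland only, 22 in the control (2.34%, against 2.52% of all probes) and 10 in the knockout (1.06%, against 1.08%). They were dim where they were seen, with a median level of -3.80 for the control-only members in the control gland and -3.47 for the knockout-only members in the knockout gland. For such a probe the difference has a bound only, taken against the higher of the dim probe's own level and the lowest level well above background on that array (-4.52 in the control and -4.19 in the knockout). The largest bound on the control side put the knockout at least 5.08-fold lower: that probe read 101 and 83.2 in the control gland, and 10.9 and 4.61, not well above background, in the knockout gland. The largest bound on the knockout side was at least 3.30-fold higher, with 32.4 and 37.2 in the knockout gland and 15.76 and 11.53, not well above background, in the control gland. Bounds of at least 2-fold were reached by 3 control-only and 5 knockout-only members, and the matching share over all probes is not given here.

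The measured members leaned toward the dim end of the array. When all measured probes were split by mean level into 4 bins of equal size, 182 of the 513 members fell in the dimmest bin, 149 in the second, 116 in the third and 66 in the brightest. In the dimmest bin 10 members were at least 2-fold higher and 6 lower (5.49% and 3.30%, against 4.77% and 4.01% of all probes there). In the second bin 2 were higher and 9 lower (1.34% and 6.04%, against 3.74% and 5.35%). In the third bin 3 were higher and 3 lower (2.59% each, against 3.61% and 5.03%). In the brightest bin 3 were higher and 1 lower (4.55% and 1.52%, against 5.66% and 3.78%). Counts this small move with single probes, and the differences from the background were not tested.

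Against the class nearest in size, curated RefSeq transcripts, the Ensembl-named members had similar counts. Of 546 measured curated RefSeq probes, 22 (4.03%) were past 2-fold on the higher side and 20 (3.66%) on the lower side, with a median log2 difference of 0.09 and extremes of -4.51 and 2.97. Predicted RefSeq probes were at 4.17% higher and 2.86% lower, and NONCODE probes at 4.11% and 3.05%.

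The transcript number was the remaining feature that the names offer. Dividing the range of numbers into 4 equal parts gives 19, 4, 229 and 688 members, so the members were also split into 4 equal sets of 235 by their number, a split added after the values were seen. Detection in the control gland was 62.1% in the set with the lowest numbers, 69.8% in the second, 52.8% in the third and 51.1% in the set with the highest numbers. The exact 95% interval was 63.5% to 75.6% for the second set, 46.2% to 59.3% for the third and 44.5% to 57.6% for the fourth. These intervals describe counts of probes only, and the differences between the sets were not tested. The knockout gland gave the same order for the first 3 sets, at 60.0%, 66.8% and 49.4%, with 51.5% in the fourth. Median levels in the control gland were -3.06, -2.19, -3.94 and -4.00. For the difference between glands, set medians lay between 0.09 and 0.14. The shares at least 2-fold apart were 5.84% of 137 measured members, 8.61% of 151, 5.45% of 110 and 8.70% of 115, against 8.99% of all probes. A comparison of close numbers, also added after the values were seen, found little likeness: over 153 neighbouring pairs no more than 5 apart in number, the Pearson correlation of mean level was 0.02, and over the 40 pairs measured on both arrays that of the difference was -0.01.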

How the data were processed

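Total RNA was amplified linearly and labelled with Cy3, per the labels' protocols. The deposited intensity values are spot signals of Agilent Feature Extraction. Its version is 11.5.1.1 per the file headers, whereas the submitters' processing notes name 10.7. The authors' deposited value table holds log2 values of the same arrays: for 935 of 942 members in the control and 937 in the knockout it equals the mean log2 processed signal of the spots minus a constant, to within 0.0001. Its column medians are -1.94 and -1.95 and its 75th percentiles 0, so scale and centring are known.

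Spots with outlier marks were left out, log2 signals of a probe's spots averaged, and each array's 75th percentile over 97373 probes subtracted. Differences are knockout minus control. A probe was measured when every usable spot was well above background, and called by size at 2-fold. With 1 array per genotype no test was possible, and the number of arrays limits the precision. By the rule for named members, the 10 brightest and up to 12 increases (8 met it) and 12 decreases were picked out; the report describes 5 decreases and 2 increases singly and the others in ranges. At most 2 identifiers were printed each way, because the files pair none with a gene. The members and lists were chosen with earlier results of these data known; none of the gene or marker lists could be matched to a member. Alternatives were 4 scalings, the authors' table, normexp with an offset of 50 on median signals (limma 3.58.1, R 4.3.3), no background correction, other filters and limits. Calculations were made in pandas 2.3.3, statsmodels 0.14.6, scipy 1.17.1 and numpy 2.4.6 under python 3.11.15. The calling code, not these differences, was checked on simulated spots.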

Additional observations from a re-analysis of the deposited data

How the results depend on the processing

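All 18 higher and 19 lower members kept their direction under every scaling, background and outlier setting run. They were picked for log2 differences of at least 1 in size. A setting that moves values by less, such as the spike-in shift of -0.36, could therefore not turn them. The counts of 18 and 19 of 513 moved by over 1.5 times as follows. With spike-ins set equal they were 8 higher and 41 lower (median difference -0.24). With normexp they were 4 and 6, and without background correction 8 and 8 (against 2.56% and 2.67% of all probes). Without the filter on dim probes they were 60 and 46 of 940 members (against 6.94% and 6.24% of all probes). With the stricter filter they were 7 and 8 of 185 members (against 5.33% and 5.65% of all probes). Because these filters change the number of members tested, their counts cannot be set directly against 18 and 19. At 1.5-fold the counts were 62 and 47 of 513, against 14.9% and 10.9% of all probes, and at 4-fold 0 and 6. Past 2-fold in every pairing of spots were 12 of the lower. Of those called, 4 of the 18 higher and 6 of the 19 lower were still past 2-fold with normexp. Detection rose to 65.1% in the control and 63.1% in the knockout when 1 spot above background sufficed. By that rule 71 members were seen on 1 array only, and the matching share over all probes is not given here. With the positive-and-significant mark, detection was 74.3% in the control and 73.6% in the knockout. Median levels were -1.55 and -1.57 over the members measured on both arrays. The cause of these shifts was not tested, apart from the settings that test fewer or more probes. No paired analysis was possible because each genotype has 1 array.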
